A study of Homo sapiens with 7 samples.

Results

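A set of 8 genes of the NF-kB system was followed on the arrays: the REL-family factors RELA, RELB, REL, NFKB1 and NFKB2, and the feedback inhibitors NFKBIA, NFKBIE and TNFAIP3. They were chosen by name, as the 8 of 36337 gene names whose non-control spots carried one of these symbols. Together they were measured by 9 probes, which filled 36 spots on each array. The arrays belong to an experiment that compared HCT116 cells carrying H2B-GFP, with and without bafilomycin A1, within a larger study of aneuploid human cells. HCT116 is a human colon carcinoma line, labelled diploid here, H2B-GFP is a fluorescent histone, and bafilomycin A1 inhibits the vacuolar proton pump and thereby late steps of autophagy. The treated group held 4 cultures, which the series design calls biological replicates, given 10 nM bafilomycin A1 for 30 h in medium with 10% serum per the labels (the methods text gives another serum concentration). From each culture, 100 ng of total RNA was labelled with Cy3 and hybridised to 1 single-colour Agilent array. All 4 shared a slide and a scan. The 3 untreated samples were not analysed here. Treated and untreated cells are therefore not compared, and every value below describes the treated cells and the error between their replicates.

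NF-kB factors are dimers of proteins that share the REL homology domain, through which they pair, enter the nucleus and bind kB sites in DNA. In resting cells IkB proteins hold the dimers in the cytoplasm; a signal from a receptor activates the IKK kinases, IkB is phosphorylated, tagged with ubiquitin and degraded, and the freed dimers switch on their targets. Several of these targets are the brakes of the pathway itself, among them IkB-alpha and A20, so that the response limits itself. In epithelial cells of the intestine the pathway is known for its part in inflammation, defence against microbes and cell survival.

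The array probes through which these genes were read are single stretches of 60 bases. Their positions are given for GRCh37, as in the deposited array files, and whether a probe lies in coding or untranslated sequence is not given in the sources used here. NFKB1 was read at chr4:103537856-103537915, REL at chr2:61149596-61149655, RELB at chr19:45541385-45541444, NFKBIA at chr14:35870788-35870847, NFKBIE at chr6:44226558-44226617 and TNFAIP3 at chr6:138203679-138203738. The NFKB2 probe covers 177 genomic bases, chr10:104161053-104161229, with a sequence of 60 bases, so it joins parts that are separate in the genome. RELA was read by 2 probes, a 10-spot probe at chr11:65421651-65421710 and a 1-spot probe at chr11:65421986-65422045, which begin at bases 1934 and 1599 of the same reference transcript.
A set of 4 sequences from the array files is shown, 5′ to 3′. The RELA probes are shown because they differed between arrays, the first by its leading 30 bases, and REL and NFKB2 as a factor gene with a wider and one with a narrower spread.
RELA (10-spot probe, bases 1 to 30): ttattcttttattgtcagtatctgtatctc
RELA (1-spot probe): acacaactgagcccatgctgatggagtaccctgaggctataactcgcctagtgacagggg
REL: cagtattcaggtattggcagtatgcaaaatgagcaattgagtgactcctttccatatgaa
NFKB2: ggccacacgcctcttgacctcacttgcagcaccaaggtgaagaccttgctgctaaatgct
The RELA probes differ in base composition, with 35% G and C in the 10-spot probe and 55% in the 1-spot probe. These are the 5th and the 95th percentile of all 50599 probes, whose median is 43.3%. The TNFAIP3 probe also holds 35% G and C.
The RELB and TNFAIP3 probes hold AATAAA, the letters of the common polyadenylation signal, shown in capitals.
RELB (bases 31 to 60): ttcagagtcttcccAATAAAgatgagtttt
TNFAIP3 (bases 11 to 40): ctccagctatgtAATAAAaaactatactct
The same 6 letters, searched on the printed strand, stand in 3986 of the 50599 probes (7.88%).

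The promoters were also searched for the kB consensus. Several of these genes are known targets of NF-kB, so the counts below describe the set and are no independent finding about it. RefSeq promoter stretches of 300 bases (250 before and 50 after a gene start, GRCh38.p14) were at hand for 6 of the 8 genes: NFKB1, NFKB2, REL, RELA, NFKBIA and TNFAIP3. The kB consensus, the standard motif of NF-kB binding sites, was searched on both strands. It matched in 6 of their 10 stretches, against 2075 of all 35116 stretches (5.91%), and in 5 of the 6 genes, against 1937 of all 27305 genes of the table (7.09%). Genes differ in their number of stretches, which these shares do not take into account. NFKB2 had 3 matches in one stretch and 2 in another, REL and TNFAIP3 had 2 each, NFKB1 and NFKBIA had 1 each, and the 2 RELA stretches had 0.
One match per gene is shown in 30 bases on the gene's strand, with the matched letters in capitals, which run over both matches where these overlap.
NFKB1 (chr4:102501300-102501329, plus strand): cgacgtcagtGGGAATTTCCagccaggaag
NFKB2 (chr10:102395674-102395703, plus strand): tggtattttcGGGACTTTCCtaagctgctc
REL (chr2:60881518-60881547, plus strand): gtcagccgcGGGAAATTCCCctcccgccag
NFKBIA (chr14:35404811-35404840, minus strand): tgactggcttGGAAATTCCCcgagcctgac
TNFAIP3 (chr6:137867182-137867211, plus strand): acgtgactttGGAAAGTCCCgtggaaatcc
These matches begin 49, 21, 47, 81 and 67 bases before the gene start, in the order shown. A match describes the letters of a window and does not show that a factor binds there, and the absence of one in RELA concerns these windows alone.

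All 8 genes were detected in the treated cells. Each of the 9 probes was well above background, as the scanner software flags it, on all 4 arrays, and 0 of the spots were saturated. Over the whole array 52.5% of gene names and 48.7% of probes met the same rule. These names include noncoding loci such as unnamed lincRNAs, whereas the genes and lists described here were picked by name. The share of 52.5%, here and below, is thus that of an unlike set. Levels are given as log2 of the background-subtracted signal minus the median of that array. A level of 0 is thus the median over non-control probes with a signal above 0. A level depends on the probe as well as on the RNA, so levels of different genes are not set against each other, and only arrays are compared within a probe. The RNA came from whole cultures, in which fewer cells of a kind and less RNA per cell cannot be told apart, and the number of arrays limits the precision.

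Because 1 array can shift many probes at once, the arrays themselves come first. Of 58717 non-control spots per array, the software marked 514, 725, 2249 and 527 as outliers on replicates 1 to 4, so replicate 3 had the most. The share of spots well above background ran from 55.6% to 60.4%. Among the 19083 detected genes, replicate 3 held the highest level of 48.5%, replicate 2 of 25.3%, replicate 1 of 20% and replicate 4 of 6.18%. The lowest level lay on replicate 4 in 35.1%, on replicate 1 in 26.9%, on replicate 3 in 23.2% and on replicate 2 in 14.8%. The shift of replicate 3 differed with brightness. When the detected probes were divided into 5 equal groups by mean level, the median deviation of replicate 3 from the mean of the arrays was -0.03 in the dimmest group, 0.01 in the second group from the bottom, 0.11 in the third, 0.17 in the fourth and 0.18 in the brightest (log2). Replicate 4 lay below the mean in every group, with medians of -0.10, -0.10, -0.11, -0.11 and -0.08 from the dimmest to the brightest. From the dimmest to the brightest group, replicate 1 went from 0.07 to -0.08 and replicate 2 from 0.05 to -0.01. The part of these shifts in the results below was not tested.

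RELA encodes p65, the main activating subunit of the canonical pathway. Its 10-spot probe gave levels of 4.79, 4.90, 5.04 and 4.75 on replicates 1 to 4, a mean of 4.87 ± 0.13 (SD, n = 4). Its 1-spot probe gave 4.25, 4.49, 3.91 and 4.08, a mean of 4.18 ± 0.25 (SD, n = 4). The probes placed replicate 3 at opposite ends: it was the highest array for the first and the lowest for the second. Its place as the highest array of the first was lost after normexp and quantile normalization, under which the 10-spot probe differed by 1.02-fold between arrays and replicate 1 was highest. The highest array stood 1.23-fold above the lowest for the 10-spot probe and 1.5-fold for the 1-spot probe. Taken as the deviation of the 1-spot probe minus that of the 10-spot probe, the difference was 0.14, 0.28, -0.44 and 0.02 on replicates 1 to 4 (log2), so the largest gap was on replicate 3. Such a gap was not unusual for this array: the differences between the RELA probes spanned 1.65-fold, the 66.9th percentile of 3301 genes with 2 detected probes, whose median was 1.45-fold, and in 57.1% of those genes the probes had different highest arrays. Both probes were in the fourth brightness group, in which replicate 3 stood 0.17 above the mean in the median (log2). Beside it, replicate 3 deviated by 0.17 for the 10-spot probe and by -0.27 for the 1-spot probe. The median over the probes, which is the gene value of the study's procedure, was 4.52, 4.70, 4.48 and 4.41, with an SD of 0.12 and a span of 1.22-fold. Thus the narrow spread of the RELA gene value stands beside opposed arrays in its parts.

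RELB encodes the partner of p52 in the non-canonical pathway and is itself a target of NF-kB. Its levels were 7.44, 7.69, 7.52 and 7.58 on replicates 1 to 4 (7.56 ± 0.10, SD, n = 4), and the highest array was 1.19-fold above the lowest. Replicate 2 was highest and replicate 1 lowest. Its probe was in the brightest group, in which replicate 3 stood 0.18 above the mean in the median, whereas the RELB level on replicate 3 was 0.04 below its own mean (deviation -0.04, log2).

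REL encodes c-Rel, the activating subunit best known from lymphocytes. Its levels were 1.82, 2.16, 2.36 and 1.85 on replicates 1 to 4 (2.04 ± 0.26, SD, n = 4). Replicates 2 and 3 lay above replicates 1 and 4, and the span was 1.45-fold. Without replicate 3 it was 1.26-fold, so that array took the gene past 1.4-fold, the fold threshold of the study's own gene selection, used here only to describe replicate spread. The REL deviation on replicate 3 was 0.31 (log2), where the median of its brightness group, the third, was 0.11.

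NFKB1 encodes p105, which is both an IkB-like inhibitor and the precursor of p50. Its 10-spot probe gave levels of 4.28, 4.36, 4.73 and 4.26 on replicates 1 to 4 (4.41 ± 0.22, SD, n = 4), from mean signals of 1495, 1440, 1858 and 1216. Replicate 3 was the highest array, and the span was 1.38-fold with it and 1.07-fold without it. Dixon's ratio for that array, 0.784, did not pass its critical value for 1 array lying apart from 3, and 0 of the 8 gene values and 0 of the 9 probes passed it. The deviation of replicate 3 was 0.32, above the median of 0.17 in the fourth brightness group (log2).

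NFKB2 encodes p100, the precursor of p52 and the inhibitor that holds RELB. Its levels were 4.46, 4.47, 4.39 and 4.25 on replicates 1 to 4 (4.39 ± 0.10, SD, n = 4), a span of 1.16-fold. Replicate 4 was the lowest array, with a deviation of -0.14 beside a median of -0.11 in the fourth brightness group (log2). Replicate 3 lay at the mean of the arrays (deviation 0.00, log2), whereas it was the highest array for NFKB1, a probe of the same brightness group.

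**Figure D1:**
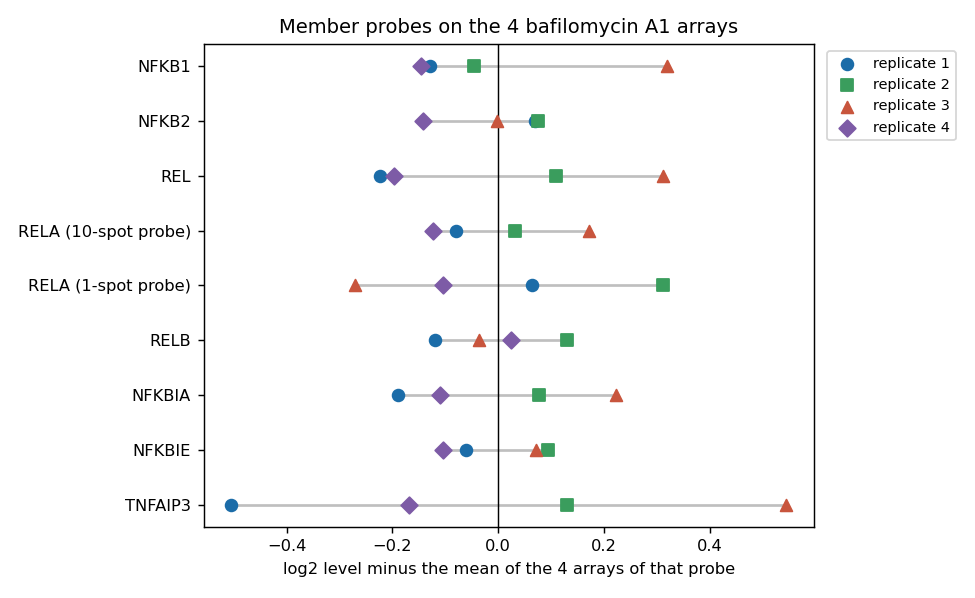
Deviation of each probe's log2 level on each of the 4 bafilomycin A1 arrays (points, by replicate) from the mean of its 4 arrays, with a grey line from the lowest to the highest array. TNFAIP3 has the widest line, from -0.50 on replicate 1 to 0.54 on replicate 3, and the RELA probes have replicate 3 at opposite ends.

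NFKBIA encodes IkB-alpha, the inhibitor that is degraded first and resynthesised first. Its 10-spot probe gave levels of 7.13, 7.39, 7.54 and 7.20 on replicates 1 to 4 (7.32 ± 0.19, SD, n = 4). Replicate 3 was highest and replicate 1 lowest, 1.33-fold apart. The deviation on replicate 3 was 0.22, beside a median of 0.18 in the brightest group, to which the probe belonged.

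NFKBIE encodes IkB-epsilon, a later feedback inhibitor that binds RELA and REL. Its levels were 6.18, 6.33, 6.31 and 6.13 on replicates 1 to 4 (6.24 ± 0.10, SD, n = 4). The span of 1.15-fold was the narrowest among the 8 gene values, with replicates 2 and 3 slightly above replicates 1 and 4.

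TNFAIP3 encodes A20, the ubiquitin-editing enzyme that acts upstream of the IKK kinases. Its levels were 0.25, 0.89, 1.30 and 0.59 on replicates 1 to 4 (0.76 ± 0.45, SD, n = 4), from signals of 91.8, 130, 173 and 95.4. Replicate 3 was highest and replicate 1 lowest, 2.07-fold apart, and the other arrays lay between them. This was the widest spread among the 8 genes. Its SD was at the 94.3rd percentile of the 24633 detected probes and at the 91.9th percentile of its own brightness group, the second from the bottom, whose median SD was 0.21 and in which 47.6% of probes spanned more than 1.4-fold. In that group replicate 3 deviated by a median of 0.01 and replicate 1 by 0.04, beside 0.54 and -0.50 for TNFAIP3. The spread did not rest on a single array: the span was 1.55-fold without replicate 3 and 1.64-fold without replicate 1.

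The spots of NFKB1, RELA and NFKBIA, printed 10 times on each array, showed how far the extreme arrays held within a probe. For NFKBIA, replicate 3 was the highest array at 10 of 10 spot positions, replicate 1 was the lowest at 9 and replicate 4 at 1, with spans of 1.27-fold to 1.41-fold. For NFKB1, 3 spots were left out as outliers on replicate 1 and 2 on replicate 4, and replicate 3 was highest at 7 of the 7 positions kept on all arrays, while the lowest was replicate 4 at 4 of them, replicate 1 at 2 and replicate 2 at 1. For the RELA 10-spot probe, with 1 spot left out on replicate 3, that replicate was highest at 8 of 9 positions and replicate 4 lowest at 9 of 9. The highest array was thus nearly the same at every position of these probes, and the lowest array of NFKB1 was not. The spots of an array share its centring and any shift of the whole array, such as that of replicate 3. After normexp and quantile normalization the highest array was replicate 2 for NFKBIA and replicate 1 for the RELA 10-spot probe. Within an array the SD of all kept spots averaged 0.12 for NFKB1, 0.19 for RELA and 0.20 for NFKBIA. After removal of what each position had in common across arrays it was 0.06, 0.03 and 0.04, over positions kept on all arrays only. For NFKB1 these were 7 of 10 positions, so its values before and after come from unlike sets of spots. These spots read the same labelled RNA, so they bear on the error of the reading and not on the difference between cultures.

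**Figure D2:**
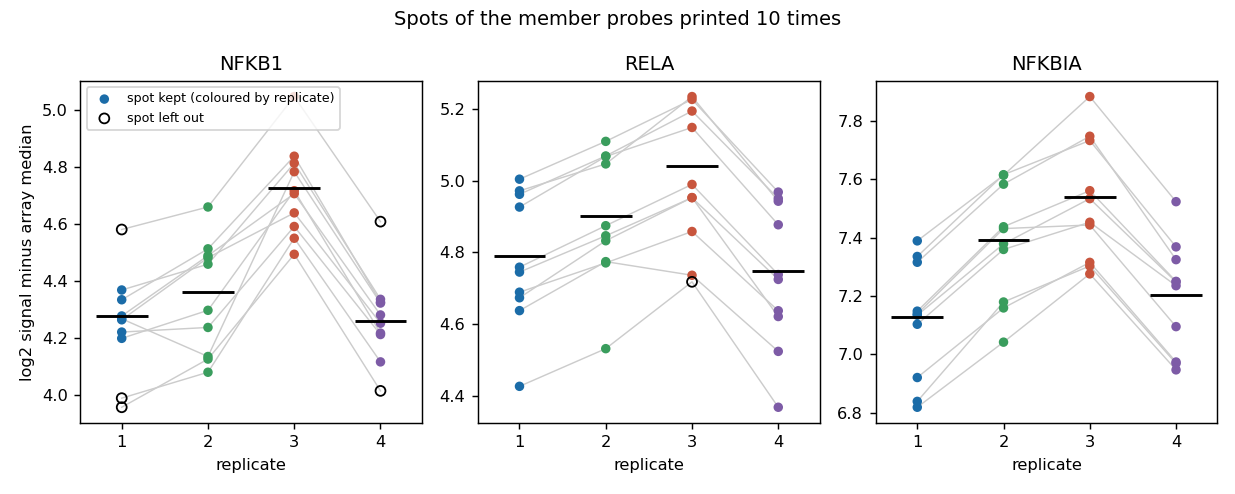
Log2 signal minus array median of each spot of the NFKB1, RELA and NFKBIA probes printed 10 times, by replicate, with grey lines joining a spot position across arrays, open circles for spots left out and a black bar for the level of the probe. Nearly all lines peak at replicate 3, with 1 RELA position kept on all arrays highest on replicate 2.

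Set side by side, 2 of the 8 gene values, REL and TNFAIP3, spanned more than 1.4-fold between replicates, where 46.4% of the 19083 detected genes did. By probe it was 3 of 9, the RELA 1-spot probe added, against 43.5% of the 24633 detected probes. The share over 1.4-fold depended on brightness: it was 47.6% in the second group from the bottom (TNFAIP3), 43.8% in the third (REL), 39.5% in the fourth (NFKB1, NFKB2 and both RELA probes) and 25.5% in the brightest (RELB, NFKBIA and NFKBIE). The median SD was 0.15 over the 8 genes and 0.21 over all detected genes, and 0.19 over the 9 probes and 0.20 over all detected probes (log2). With 8 genes these counts describe the set and single out no property of it. The highest array was replicate 3 for NFKB1, REL, NFKBIA and TNFAIP3 (4 of 8, against 48.5% of detected genes) and replicate 2 for NFKB2, RELA, RELB and NFKBIE (4 of 8, against 25.3%). The lowest array was replicate 1 for REL, RELB, NFKBIA and TNFAIP3 (4 of 8, against 26.9%), and replicate 4 for NFKB1, NFKB2, RELA and NFKBIE (4 of 8, against 35.1%). Several of these highest and lowest arrays, above all replicate 4 as the lowest, changed with the processing. The median deviations of the 8 genes were -0.12, 0.10, 0.15 and -0.13 on replicates 1 to 4. The 97 other genes of the pathway gave -0.08, 0.06, 0.12 and -0.12 over those detected.

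The way of processing moved some of these spans. The highest and the lowest array were the same in 5 of 5 ways for REL, TNFAIP3 and the RELA 1-spot probe. For the other 6 probes they changed: NFKB1 kept its highest array in 5 of 5 and its lowest in 1 of 5, NFKBIA in 4 and 5, the RELA 10-spot probe and RELB in 4 and 3, NFKBIE in 4 and 2, and NFKB2 in 2 and 2. Replicate 3 was the lowest array of NFKB2 in 2 ways and its highest in 1. TNFAIP3 spanned 1.59-fold to 2.26-fold and the RELA 1-spot probe from just over 1.4-fold to 1.59-fold, past 1.4-fold in 5 of 5, whereas REL passed in 3 of 5, with spans of 1.25-fold to 1.58-fold. NFKB1 and NFKBIA passed in 1 of 5, when the array median was taken over all probes, and NFKB2, RELB, NFKBIE and the RELA 10-spot probe in 0 of 5. After normexp and quantile normalization the RELA 10-spot probe spanned 1.02-fold with replicate 1 highest.

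**Figure D3:**
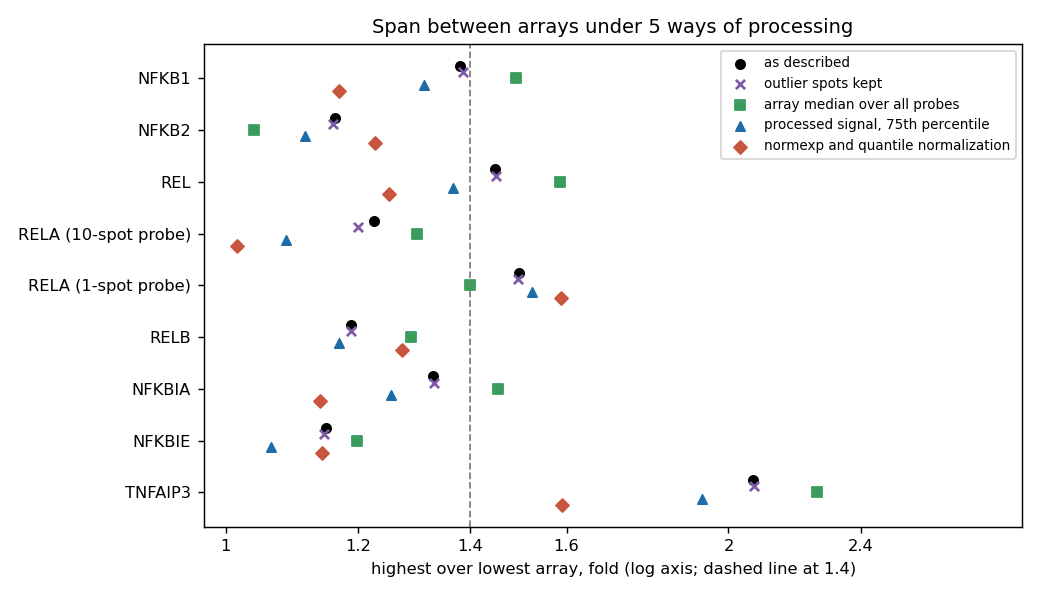
Highest over lowest array (fold, log axis) of each probe under 5 ways of processing the same spots, with a dashed line at 1.4-fold. TNFAIP3 lies to the right of the line under each of them, between 1.59 and 2.26, and NFKBIE to the left, between 1.06 and 1.2.

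The rest of the pathway was described by gene lists, of which the whole held 97 genes. Of these, 69 (71.1%) had a probe well above background on all 4 arrays, beside 52.5% of all gene names. A further 10 had one on some arrays and 18 on none. By the looser flag for a positive and significant signal it was 78 on all arrays and 5 on none. The share of all gene names detected on no array was not computed, nor was any share under the looser flag. Those counts, here and below, therefore have no such share beside them. Among the 69, 31 spanned more than 1.4-fold (46.4% of all detected genes did, each taken over all its probes and not over the detected ones alone).

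Of the ligands that start the pathway, 5 of 11 (45.5%) were detected on all arrays, beside 52.5% of all gene names. Detected on none were 5: CD40LG, IL1A, IL1B, LTB and TNFSF11. TNF itself, the classical inducer, was detected on 3 of 4 arrays. By the looser flag 7 of 11 ligands were detected on all arrays, LTB and TNF among them, and 1, CD40LG, on none. Of 16 receptors, 11 (68.8%) were detected on all arrays, and TLR2, a receptor for bacterial lipoproteins, on none. A probe that is not well above background gives a bound on that array and does not show that the RNA was absent.

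The signalling core was read almost throughout. Of 11 IKK kinases and their activators, 10 (90.9%) were detected on all arrays, beside 52.5% of all gene names. Of 18 adaptors and ubiquitin ligases, 16 were, and TRAF1 and BCL10 were detected on no array (on some by the looser flag).

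The list of other IkB proteins, which also held the repressor NKRF, was detected throughout (6 of 6), beside 52.5% of all gene names. The median SD of that list was 0.13, beside 0.21 over all detected genes. BCL3, a nuclear IkB protein that works with p50 and p52, had levels of 6.19, 6.28, 6.52 and 6.27 on replicates 1 to 4, with replicate 3 highest and a span of 1.25-fold. NFKBIZ, the inducible nuclear IkB-zeta, had levels of -1.34, -0.86, -0.54 and -0.91, a span of 1.74-fold. Replicate 3 was highest and replicate 1 lowest for BCL3 and NFKBIZ, as for 21% of detected genes. NFKBIZ was the single gene of that list to span more than 1.4-fold, beside 46.4% of all detected genes.

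Of the deubiquitinases and partners of A20, 8 of 9 were detected on all arrays, beside 52.5% of all gene names. TNIP3 was detected on none (on some by the looser flag). Among the 8, 5 spanned more than 1.4-fold, beside 46.4% of all detected genes. TNIP2, which encodes an A20-binding inhibitor, had levels of 4.25, 4.50, 2.52 and 4.02 on replicates 1 to 4. Replicate 3, the array with the most outlier spots, was low there, and the span was 3.95-fold. TNIP2 was read by 1 probe, and its other arrays lay between 4.02 and 4.50. Spans of the list genes were not recomputed under the other ways of processing. ITCH, a ubiquitin ligase that works with A20, had levels of 0.40, 0.74, 1.21 and 1.53, with replicate 4 highest and a span of 2.20-fold.

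Of 26 target genes outside the feedback loop, 13 were detected on all arrays, 4 on some and 9 on none. The 13 are 50% of the list, beside 52.5% of all gene names. The 9 were CCL2, CCL5, CXCL10, ICAM1, VCAM1, SELE, NOS2, PTX3 and CFB, which encode chemokines, adhesion molecules and defence proteins. This depended on the flag: by the looser flag, ICAM1, NOS2 and PTX3 were detected on all arrays, CCL2, CCL5 and CFB on some, and CXCL10, VCAM1 and SELE on none, with 18 of 26 targets detected on all arrays. CXCL8, the neutrophil chemokine, had levels of 1.45, 1.80, 2.06 and 1.74 on replicates 1 to 4 through the detected one of its 2 probes, a span of 1.53-fold. CXCL2, another such chemokine, had levels of 0.76, 1.59, 1.5 and 1.25, also through the detected one of its 2 probes. Its span was 1.78-fold with replicate 1 lowest. Both chemokines had replicate 1 as the lowest array, as did 26.9% of detected genes. Over the 13 detected targets the median SD was 0.15, beside 0.21 over all detected genes. Of these targets 4 spanned more than 1.4-fold, beside 46.4% of all detected genes.

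**Figure D4:**
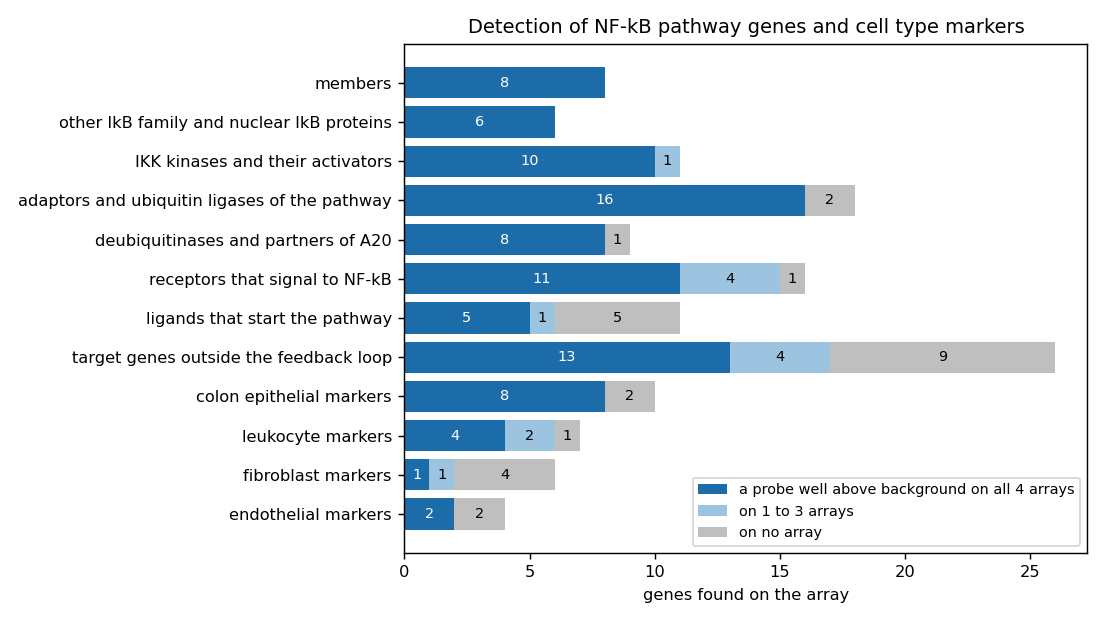
Number of genes found on the array in each list (stacked bars), split by whether a probe was well above background on all 4 arrays, on 1 to 3 arrays or on no array. The 8 genes described here are detected throughout, whereas 9 of 26 targets and 5 of 11 ligands are on no array by the flag plotted, and 3 and 1 by the looser flag for a positive and significant signal. The share of all gene names detected on no array was not computed.

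The label of the cells was set against cell type markers. Detection on all arrays held for 52.5% of all gene names, noncoding loci included. Of 10 colon epithelial markers 8 (80%) were detected on all arrays, among them EPCAM with levels of 8.70 to 9.04, and VIL1 and CEACAM5 on none. Of 7 leukocyte markers found on the array, 4 (57.1%) were detected on all arrays and MS4A1 on none. Among the 4 were CD3E (mean level -0.34), CD68 (1.17) and PTPRC (0.57), the last with 1 of its 5 probes detected on all arrays. Of 6 fibroblast markers 1 (16.7%) was detected (COL1A1, mean level 2.91), and of 4 endothelial markers 2 (50%) were, including CDH5 (0.83). The leukocyte and endothelial shares lay near that of all gene names, so they do not show that such cells were present. The median deviations of the leukocyte markers were 0.03, 0.00, 0.09 and -0.04 on replicates 1 to 4, beside -0.12, 0.10, 0.15 and -0.13 for the 8 NF-kB genes, and their part in the values above was not tested.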

How the data were processed

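Gene expression was measured on 4 single-colour arrays of bafilomycin A1-treated HCT116 H2B-GFP cells, grouped by the labels; the 3 untreated samples were not analysed here. The authors deposited, for each array, intensity values on a linear scale written by Agilent Feature Extraction 10.7.3.1, background-subtracted and not normalized between arrays.

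Control spots and those with any of 4 outlier flags were dropped, and repeated spots were averaged per probe on the linear scale, steps that are not in the study's methods. The following steps are: log2 of this signal, subtraction of the array median (here over non-control probes with a signal above 0) and, per gene, the median of its probes. Detection on an array required that more than 50% of a probe's kept spots were well above background, and failed where none was kept. Means over replicates are given with the SD, where the study took the median. Spread was described by the SD and by the highest over the lowest array, with 1.4-fold as the mark. A single array lying apart was sought with Dixon's ratio (critical value 0.829 for 4 values; chance gives about 5%). No test between groups was possible, and no p-value is given.

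The 8 genes and the lists were chosen with earlier results of these data known. Named were the 8 genes with all their probes and, of each other list, genes detected on no array and up to 3 detected genes with the widest span; EPCAM, TNF, CD3E, PTPRC, CD68, COL1A1 and CDH5 are named beside the counts, EPCAM and TNF outside that rule and after their values were seen. List genes have the median over probes detected on all 4 arrays. Shares and SDs over all detected genes instead use the median over all probes of a gene, so the measures differ for genes with undetected probes. CXCL8 and OTULIN carry older symbols on the array, found through the GRCh38.p14 RefSeq gene table, and 1 marker, LYZ, was not found by symbol. Promoter stretches are those of RefSeq.

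Alternatives were the processed signal minus the 75th percentile of the array, normexp with an offset of 50 followed by quantile normalization, detected probes only, outlier spots kept, the mean over probes, another detection flag and leaving out each replicate. The array median over all probes, with signals at or below 0 counted as lowest, was added after seeing the data. The calculations were tested on simulated data. Python 3.11.15, numpy 2.4.6, pandas 2.3.3, scipy 1.17.1, matplotlib 3.10.9, R 4.3.3 and limma 3.58.1 were used.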

Additional observations from a re-analysis of the deposited data

How the results depend on the processing

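No paired analysis was possible because the untreated group, which shares the replicate numbers, was not analysed here. The number of the 8 genes spanning more than 1.4-fold was 2 as described. It was 1 (TNFAIP3) with the processed signal and the 75th percentile, and also 1 with normexp and quantile normalization. It was 4 (NFKB1, REL, NFKBIA and TNFAIP3) with the array median over all probes, an alternative chosen after seeing the data. With each replicate left out it was 1 to 2, and the 1 came without replicate 3, where REL spanned 1.26-fold. The median SD of the 8 genes, 0.15 as described, was 0.13 under both the processed signal and normexp, 0.19 with the array median over all probes, and 0.13 to 0.17 with each replicate left out. All 8 genes stayed detected when outlier spots were kept; the other detection alternatives, a looser flag and fewer arrays, were not able to lose a gene. Of the 97 other pathway genes, 69 were detected on all arrays, and 78 when the flag for a positive and significant signal replaced the one for well above background. Taking detected probes only or the mean over probes could not move these values, since all 9 probes were detected and no gene had more than 2. The cause of the shifts was not tested. TNFAIP3 was read by 1 spot, at the 29.5th percentile of level among the 24633 detected probes. The 6 probes with 1 spot have no check within the array.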
